A study of Mus musculus with 4 samples.

Results

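The genes described here encode the signalling parts of the T cell receptor (TCR) complex, the CD8 co-receptor and the kinases and scaffold that act directly on them. They are Cd3d, Cd3e, Cd3g, Cd247, Cd8a, Cd8b1, Lck, Fyn, Zap70 and Lat, taken by symbol from the feature table, and all 10 were found among its 32285 features. The comparison asks whether the transcripts of this receptor machinery differ when the antigen of a tumour binds the TCR with low or with high affinity. CD44+ CD90.1+ CD8+ cells had been sorted by flow cytometry from the tumour-draining lymph nodes of C57BL/6 mice at day 14 after tumour implantation. The C6M9 group carried tumours with low affinity GP33, and its cells came from 35 mice in 2 libraries. The M9 group carried tumours with high affinity GP33, and its cells came from 10 mice in 2 libraries. GP33 is an epitope of the glycoprotein of lymphocytic choriomeningitis virus, here present in the tumour. Every library thus held antigen-experienced (CD44+) CD8 T cells with the CD90.1 form of Thy1, which C57BL/6 mice of the common type lack and which is often used to mark transferred T cells. The TCR and the origin of these cells, the tumour line, the age of the mice and the way mice were divided between libraries were not given in the sources used here, so each p-value below covers the spread between libraries, which are called biological duplicates in the labels.

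The libraries were single-cell 3′ gene expression libraries, in which the 3′ end of each transcript is counted once per unique molecular identifier (UMI). They held 73379913 and 65721043 UMIs in C6M9 replicates 1 and 2, and 79174627 and 33680632 in M9 replicates 1 and 2. After filters on quality and doublets and the removal of 127 B cell-like cells, 2888 and 1733 T cells remained in the C6M9 libraries and 4100 and 1199 in the M9 libraries. The median T cell held 13999.5 and 21460 UMIs in the C6M9 libraries, against 13217 and 20024 in the M9 libraries, so depth per cell differed within each group more than between the groups. The sorted cells carried the defining genes of CD8 T cells. After every cell was thinned to 2000 UMIs, a UMI of a CD3 chain was found in 99.5% of cells in each C6M9 library, against 99.6% and 99.4% in the M9 libraries. A UMI of either Cd8 chain was found in 94.5% and 93.3% of C6M9 cells, against 92.2% and 92.3% of M9 cells. Markers of other cell types differed in part between the groups. Summed B cell markers reached 340.5 and 380 counts per 1000000 (CPM) in the C6M9 libraries and 317 and 315 CPM in the M9 libraries. Ighm and Ighd rose in C6M9 (edgeR adjusted p = 0.0197 and 0.0312), as 2 of 11 such genes tested. The list had no single direction, with log2 differences of C6M9 minus M9 from −0.73 to 1.57. Cd74 had 42.4 and 45.7 CPM in C6M9 against 91.9 and 60.4 CPM in M9. Cd79b overlapped, at 21.9 and 23.0 CPM in C6M9 against 22.4 and 20.8 CPM in M9. Natural killer markers summed to 3.05 and 2.39 CPM in C6M9 against 5.59 and 4.38 CPM in M9, with Klrb1c lower in C6M9 as 1 of 4 tested, and CD4 and regulatory T cell markers to 9.61 and 9.41 CPM in C6M9 against 11.4 and 12.8 CPM in M9, with Cd4 lower as 1 of 4. Myeloid markers summed to 89.5 and 85.3 CPM in C6M9 against 102 and 82.4 CPM in M9, with Cd68 lower as 1 of 5 and S100a8, S100a9 and Siglech at 0 in every library. Markers of γδ T cells summed to 390.1 and 415 CPM in C6M9 against 406 and 404 CPM in M9, and genes induced by tissue dissociation to 334 and 717 CPM in C6M9 against 886 and 372 CPM in M9, and none of either list was called. Red cell and platelet markers stayed at or below 0.06 CPM. The part of these differences in the results below was not tested.

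The antigen-binding chains of the TCR have almost no cytoplasmic tail, and the signal is carried by the CD3 γ, δ and ε chains and by the ζ chain (Cd247), whose tails hold tyrosine activation motifs. CD8, a dimer of α and β chains, binds MHC class I beside the TCR and brings the Src family kinase Lck to these motifs, where Lck, and in part Fyn, phosphorylate the tyrosines. Zap70 docks onto the phosphorylated motifs and phosphorylates Lat, a membrane scaffold on which the calcium and Ras pathways are assembled.

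In the GENCODE annotation of GRCm38, the mouse build of the count tables, the genes of the CD3 γ, δ and ε chains form one cluster on chromosome 9. Cd3g (44969572 to 44980431, minus strand) and Cd3d (44981786 to 44987339, plus strand) are read away from each other, and their annotated starts are 1355 bases apart. Cd3e (44998740 to 45009627, minus strand) runs towards Cd3d, and the ends of these genes lie 11401 bases apart. Cd8b1 (71322788 to 71337494) and Cd8a (71373427 to 71379173) follow each other on the plus strand of chromosome 6, with 35933 bases between them. The remaining members lie apart: Cd247 on chromosome 1 (165788681 to 165877277, plus), Zap70 on chromosome 1 (36761798 to 36782818, plus), Lck on chromosome 4 (129548344 to 129573641, minus), Fyn on chromosome 10 (39368855 to 39565381, plus) and Lat on chromosome 7 (126363824 to 126369570, minus). Annotated genes overlap Cd3e, Cd247, Lck, Fyn, Zap70 and Lat, and the strand setting of the counting was not given in the sources used here.

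Promoter windows are shown for the divergent CD3 pair, because these genes moved together across cell states, and for Fyn, the member that changed. Each window runs from 250 bases before to 50 bases after the RefSeq start, is written in the direction of the gene, and comes from RefSeq with GRCm38.p6 coordinates. The windows of Cd3d (chr9:44981536-44981835, plus strand), Cd3g (chr9:44980382-44980681, minus strand) and Fyn (chr10:39369549-39369848, plus strand) are printed with each match to the E-box CAGGTG, on either strand, in capitals:

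Cd3d: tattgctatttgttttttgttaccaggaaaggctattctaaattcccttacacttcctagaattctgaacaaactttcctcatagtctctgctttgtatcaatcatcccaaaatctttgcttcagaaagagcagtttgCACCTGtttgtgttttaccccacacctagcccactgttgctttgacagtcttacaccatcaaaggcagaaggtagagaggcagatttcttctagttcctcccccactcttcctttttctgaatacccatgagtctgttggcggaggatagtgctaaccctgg

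Cd3g: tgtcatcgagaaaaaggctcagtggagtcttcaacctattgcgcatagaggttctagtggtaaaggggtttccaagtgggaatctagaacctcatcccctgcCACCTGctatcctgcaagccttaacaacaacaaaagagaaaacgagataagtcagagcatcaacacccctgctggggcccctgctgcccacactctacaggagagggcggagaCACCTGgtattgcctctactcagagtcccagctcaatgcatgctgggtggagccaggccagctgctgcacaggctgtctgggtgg

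Fyn: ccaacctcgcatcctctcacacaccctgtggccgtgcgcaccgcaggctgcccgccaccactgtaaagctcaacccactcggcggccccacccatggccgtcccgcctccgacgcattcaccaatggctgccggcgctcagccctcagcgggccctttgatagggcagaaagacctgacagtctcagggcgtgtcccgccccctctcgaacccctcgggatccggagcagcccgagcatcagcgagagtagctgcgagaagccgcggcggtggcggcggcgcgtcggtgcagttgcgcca

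E-boxes are read by E proteins and by zinc finger repressors in lymphocytes. The Cd3d window held 1 match and the Cd3g window 2, and the Fyn window held none. Over the 12 windows listed for 9 of the members (Cd8b1 had no entry), 8 held CAGGTG, against 20.2% of all 32851 windows of this length. Zap70 and Lck entered these 8 with 2 windows each, beside Cd3d, Cd3e, Cd3g and Cd247, so windows are not separate genes. TGTGGT, a motif of Runx factors, was present in 3 of the 12 windows against 16.8% of all windows, CCGGAA, a motif of Ets factors, in 1 against 14.9%, and TATAAA in 0 against 13.6%. All 4 motifs were searched on both strands, and no motif contains another. The GC content was 42.3% for Cd3d, 54% for Cd3g and 69% for Fyn. The RefSeq start of Fyn used for its window lies 944 bases inside the annotated start of the gene. A match of letters is a description and not a site of binding.

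Over all T cells, 1 of the 10 members passed the test of C6M9 against M9. Fyn was lower in C6M9, and the other 9 members did not pass the test at an adjusted p of 0.05. Each gene was compared on UMIs summed per library with the quasi-likelihood test of edgeR, adjusted over all 13660 genes tested, and levels are given as CPM scaled by the trimmed mean of M values (TMM). All differences are log2 values of C6M9 minus M9 with their standard errors (SE) and 2 libraries a group. Of the genes tested, 6.57% were called, 1.95% higher and 4.62% lower in C6M9, so 1 call among 10 members is close to the rate over all genes. The median difference was −0.04 for the members and −0.01 for all genes. For 5 of the 10 members the libraries of the groups did not overlap, against 55.8% of all genes. This count holds for scaled CPM, and on unscaled CPM Lck overlapped while Cd247 and Cd8a did not. The levels behind these counts are drawn in the plot of members by library.

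**Figure D1:**
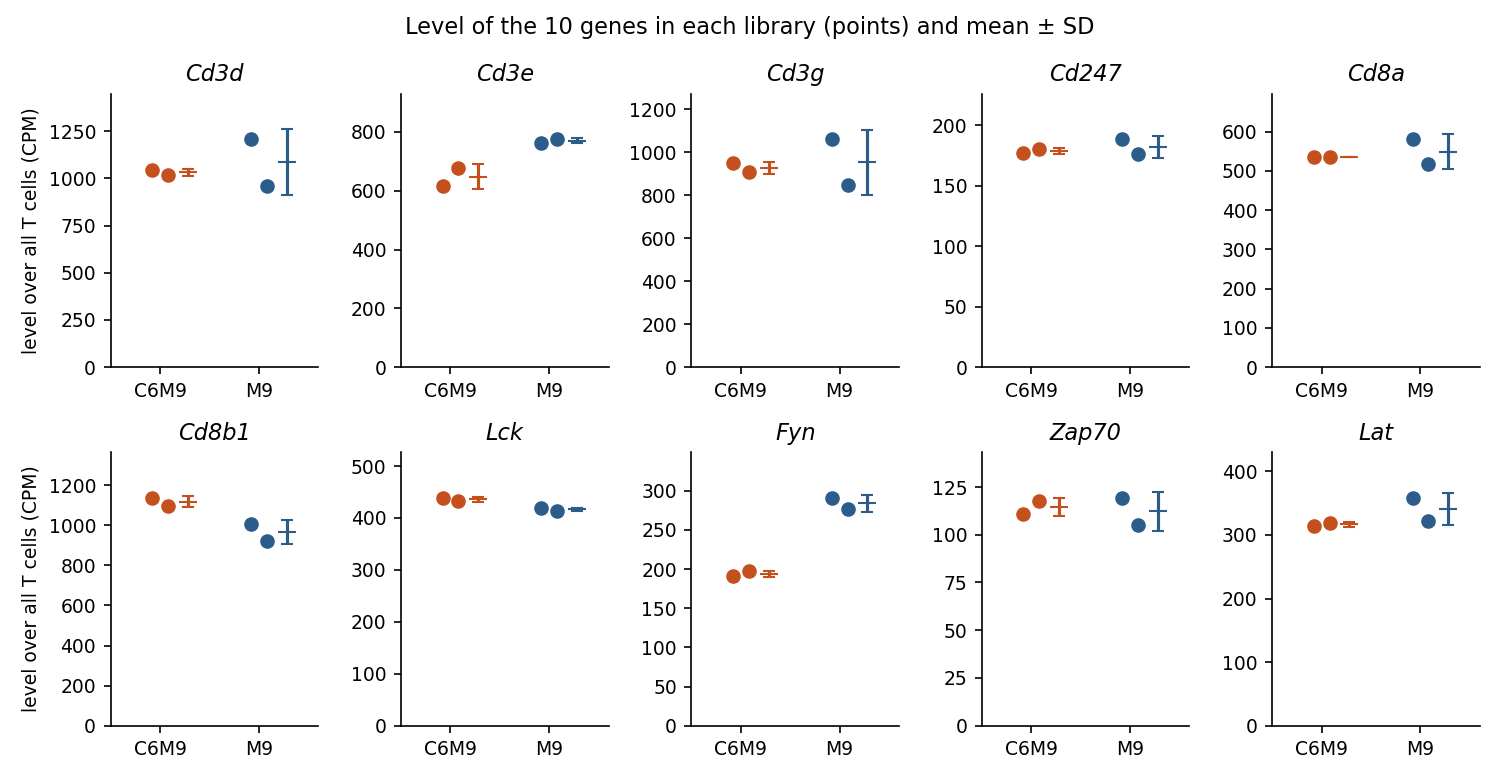
Level of each of the 10 genes in all T cells of each library (TMM-scaled CPM; points are libraries, bars the mean of the 2 libraries of a group; C6M9 left, M9 right). Fyn is the member whose groups differ most as a ratio, at 192 and 197 CPM in C6M9 against 291 and 277 CPM in M9, while Cd3d, Cd3g, Cd247, Cd8a and Zap70 overlap between the groups.

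Among the CD3 chains, the ε chain gene Cd3e, which pairs with both the γ and the δ chain in the complex, had 617 and 677 CPM in the C6M9 libraries, against 764 and 775 CPM in the M9 libraries. Both C6M9 libraries lay below both M9 libraries. The difference was −0.25 ± 0.10, with a 95% interval of −0.48 to −0.02, and did not pass the adjustment (edgeR adjusted p = 0.171). Cd3d, the δ chain, had 1046 and 1018 CPM in the C6M9 libraries, against 1208 and 961 CPM in the M9 libraries. The M9 libraries lay on either side of the C6M9 libraries, and the interval of the difference, −0.36 to 0.22, spans zero (edgeR adjusted p = 0.778). Cd3g, the γ chain, showed the same arrangement, with 948 and 907 CPM in the C6M9 libraries against 1061 and 846 CPM in the M9 libraries, and an interval of −0.33 to 0.25. Cd247, the ζ chain that limits assembly of the complex at the cell surface, had 177 and 180.5 CPM in the C6M9 libraries, against 188 and 176 CPM in the M9 libraries. The M9 libraries again lay on either side, and the difference was −0.03 ± 0.08, with an interval of −0.22 to 0.17. Without scaling, the C6M9 libraries lay below the M9 libraries, at 172 and 176 CPM in C6M9 against 188 and 185 CPM in M9.

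The CD8 chains did not pass the test. Cd8a, the α chain that forms homodimers as well as the αβ dimer, had 536 CPM in each C6M9 library, against 581 and 517 CPM in the M9 libraries. The C6M9 values fell inside the M9 range, and the difference was −0.03 ± 0.10 (edgeR adjusted p = 0.870). Without scaling, the C6M9 values lay below the M9 values, at 520 and 525 CPM in C6M9 against 581 and 545 CPM in M9. Cd8b1, the β chain found in the αβ dimer, had 1138 and 1098 CPM in the C6M9 libraries, against 1008 and 924 CPM in the M9 libraries. Both C6M9 libraries were the higher ones, with a difference of 0.21 ± 0.10 and an interval of −0.03 to 0.45 (edgeR adjusted p = 0.256).

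Among the kinases, Fyn, the Src family kinase that binds the CD3 chains, had 192 and 197 CPM in the C6M9 libraries, against 291 and 277 CPM in the M9 libraries. All C6M9 values lay well below the M9 values, with means of 194 ± 3.87 CPM in C6M9 and 284 ± 10.5 CPM in M9 (SD, n = 2 each). The fold of C6M9 over M9 was 0.684, with a 95% interval of 0.598 to 0.783, a log2 difference of −0.55 ± 0.09 (edgeR adjusted p = 0.00921). This rests on 12466 and 11706 Fyn UMIs in C6M9 and on 21004 and 9459 in M9. The call was lost when a C6M9 library was left out, with an edgeR adjusted p of 0.0967 without replicate 1 and of 0.0519 without replicate 2. Lck, the kinase carried by CD8, had 439 and 433 CPM in the C6M9 libraries, against 419 and 414 CPM in the M9 libraries. Its scaled levels did not overlap, yet the difference was 0.07 ± 0.09, with an interval of −0.14 to 0.27 (edgeR adjusted p = 0.695). Without scaling, they overlapped, at 426 and 423 CPM in C6M9 against 419 and 436 CPM in M9. Zap70, the kinase that docks on the phosphorylated motifs, had 111 and 118 CPM in the C6M9 libraries, against 119 and 105 CPM in the M9 libraries, which overlap. Its difference was 0.03 ± 0.09, with an interval of −0.18 to 0.24. Lat, the scaffold, had 314 and 319 CPM in the C6M9 libraries, against 359 and 323 CPM in the M9 libraries. The C6M9 libraries were the lower ones by a margin smaller than the gap between the M9 libraries, and the difference was −0.11 ± 0.09 (edgeR adjusted p = 0.531).

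With each cell thinned to 2000 UMIs, which left out 24 shallower cells, a Fyn UMI was found in 33.4% and 31.6% of C6M9 cells, against 44.6% and 46.7% of M9 cells. Unthinned, the shares were 89.8% and 94.4% in C6M9 against 94.4% and 96.8% in M9. Cd3e was found in 71.1% and 75% of C6M9 cells against 78.8% and 82.9% of M9 cells at 2000 UMIs, and Cd8b1 in 87.7% and 86.6% of C6M9 cells against 81.8% and 83.4% of M9 cells. Fyn and Cd3e were thus seen in fewer C6M9 cells and Cd8b1 in more. Cd247 was found in 29.4% and 31.9% of C6M9 cells against 32.3% and 32.6% of M9 cells, also without overlap. These were 4 of 10 members without overlap, against 45.6% of all genes tested, and at 4000 UMIs per cell there were 6 of 10, against 50.2%. The shares of Lck and Lat, whose scaled levels did not overlap, overlapped at both depths. With 2 libraries a group the exact two-sided permutation test cannot go below 0.333, the value each of these 4 members had. In 61 B cell-like cells with few T cell transcripts, the shares at the same depth were 1.64% to 6.56%. Fyn had the highest unthinned level of the members there, 47.8 CPM, with Lck next at 22.5 CPM. Whether these cells make Fyn themselves was not tested, so they give no floor for it. The limit that chose those cells was set after values were seen, and their median depth was 4801 UMIs against 15308 in T cells.

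Ratios within a library are free of depth and scaling. The ratio of Fyn to Lck UMIs was 0.436 and 0.455 in the C6M9 libraries, against 0.695 and 0.668 in the M9 libraries, a difference of −0.236. The ratio of Cd8b1 to Cd8a UMIs was 2.12 and 2.05 in the C6M9 libraries, against 1.73 and 1.79 in the M9 libraries, a difference of 0.325. Both ratios separated the groups without overlap, at the smallest p this design allows (exact two-sided permutation test, p = 0.333 each). The ratio of Cd247 to Cd3e UMIs, 0.287 and 0.267 in C6M9 against 0.247 and 0.227 in M9, did so too. By cell class, however, it was higher in C6M9 without overlap in 5 of 9 and overlapped in 4. It was also higher in the library numbered 1 of both groups in 8 of 9 classes. The ratio of Zap70 to Lck UMIs overlapped, at 0.253 and 0.272 in C6M9 against 0.285 and 0.254 in M9. The ratios of Cd3g to Cd3e and of Cd3d to Cd3e separated libraries and not groups. Cd3g to Cd3e stood at 1.54 in C6M9 replicate 1 and 1.34 in C6M9 replicate 2, against 1.39 in M9 replicate 1 and 1.09 in M9 replicate 2. Cd3d to Cd3e stood at 1.69 and 1.50 in the C6M9 libraries, against 1.58 and 1.24 in the M9 libraries. Within each group the library numbered 1 had the higher value of both ratios in 9 of 9 cell classes, so the balance among these chains differed between libraries of the same kind across every cell state.

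Cells were grouped into 9 classes by clustering without the 10 genes, and each class was named from its leading genes. Class names ending in -like rest on lists of markers and were rebuilt from the data, so they need not match the names used by the study. A cluster led by Kcnc1, Izumo1r and Gzmk matched no marker list and is called the Kcnc1 cluster. Levels by class are a description without a test, since the clusters were drawn on these same cells, and they are given as unscaled CPM averaged over the 4 libraries with their SD. The order of classes differed between members, as the heat map of classes shows.

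**Figure D2:**
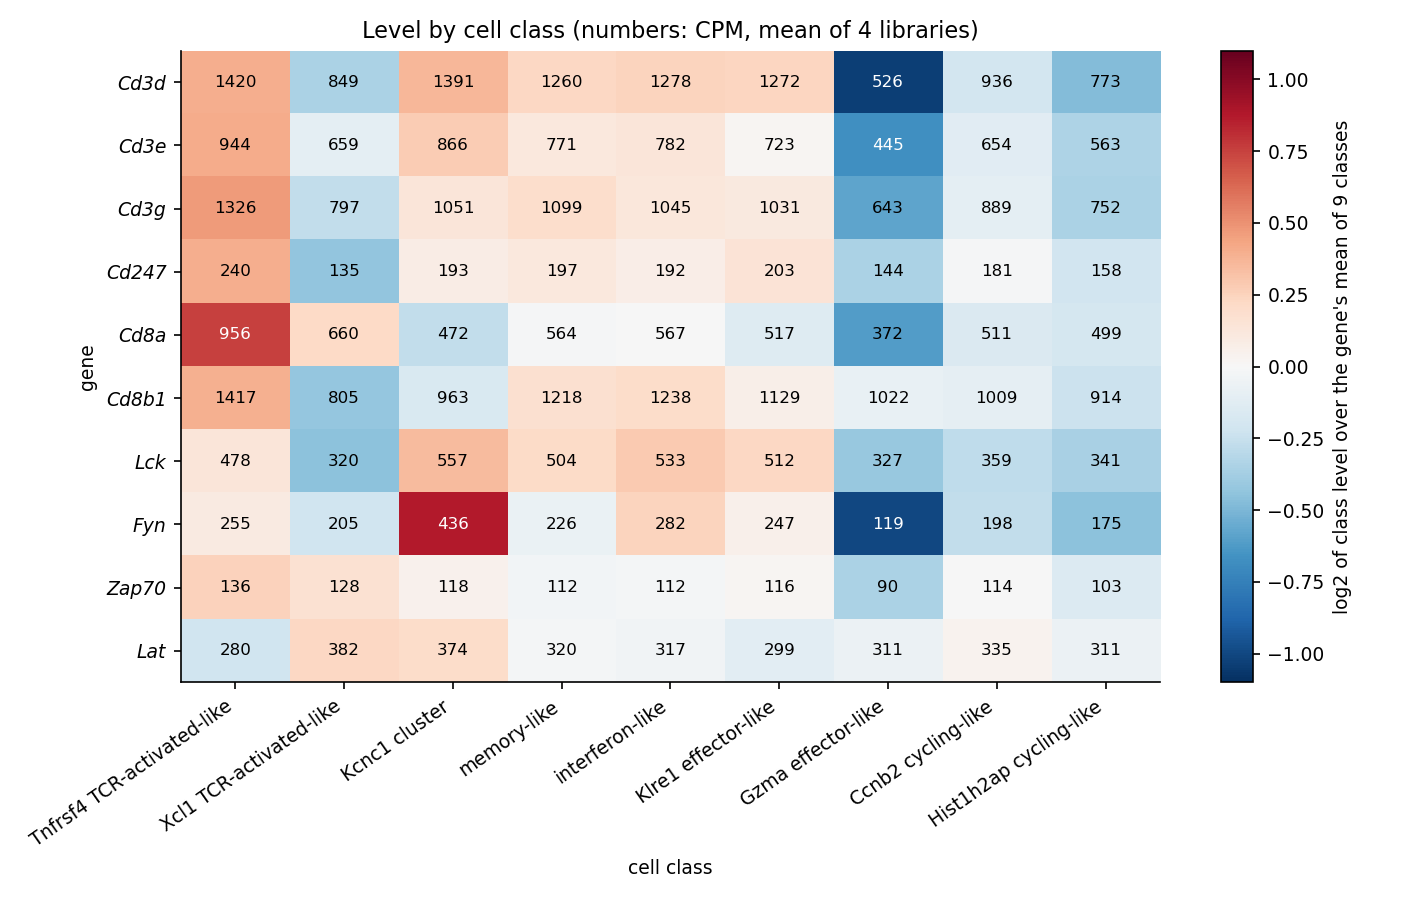
Level of each of the 10 genes (rows) in each of 9 cell classes (columns), as the log2 ratio of the mean CPM of the 4 libraries to the gene's mean over classes; blue is lower, red is higher. Fyn is highest in the Kcnc1 cluster, at 0.87, and Cd3d is lowest in the Gzma effector-like class, at −1.04.

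The CD3 chains shared a pattern. Cd3d averaged 1420 ± 114 CPM in the Tnfrsf4 TCR-activated-like class, led by genes that receptor signalling induces, and 526 ± 48 CPM in the Gzma effector-like class, a 2.70-fold span. Cd3e averaged 944 ± 114 CPM and 445 ± 33 CPM in the same classes, and Cd3g averaged 1326 ± 106 CPM and 643 ± 73 CPM. These were the highest and the lowest classes in CPM for each of the 3 genes. CPM is a share of a cell's RNA, and the median cell held 15323 UMIs in the Tnfrsf4 class and 44780 in the Gzma class. The spans therefore do not hold for molecules per cell. Both classes were small in places, with 35 and 21 Tnfrsf4 cells in the C6M9 libraries and 13 Gzma cells in M9 replicate 2. Cd247 was also highest in the Tnfrsf4 TCR-activated-like class, at 240.2 ± 13.05 CPM, and lowest in the Xcl1 TCR-activated-like class, at 135 ± 7.70 CPM. Of the 10 leading genes of the Xcl1 class, 2 (Xcl1 and Tnfrsf9) are on the list that gave the class its name, and the others include Srm, Mettl1 and Nop16, known from polyamine synthesis, RNA methylation and ribosome assembly.

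The CD8 chains parted in those classes. Cd8a averaged 956 ± 67.3 CPM in the Tnfrsf4 class and 660.4 ± 22.5 CPM in the Xcl1 class, its highest levels, and 372 ± 22.3 CPM in the Gzma class. Cd8b1 averaged 1417 ± 153 CPM in the Tnfrsf4 class but 805 ± 48.1 CPM in the Xcl1 class, its lowest level. At 2000 UMIs, cells with a Cd8a UMI and no Cd8b1 UMI made up 11.4% and 10.2% of Xcl1 cells in the C6M9 libraries, against 19.5% and 23.2% in the M9 libraries. Over all T cells these shares were 6.86% and 6.67% in C6M9 against 10.4% and 8.88% in M9, and in the Kcnc1 cluster 3.94% and 1.12% in C6M9 against 12.1% and 8.61% in M9. Across the 9 classes the share was lower in C6M9 without overlap in 5 and overlapped in 4, the Gzma, Tnfrsf4, interferon-like and memory-like classes, and a missing UMI at this depth does not show that a cell lacked the transcript.

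Fyn had the widest span of all members, 3.66-fold. Its level was 436 ± 59.2 CPM in the Kcnc1 cluster and 119 ± 12.2 CPM in the Gzma effector-like class. The 4 libraries of the Kcnc1 cluster held 434 and 358 CPM in C6M9 and 451 and 501 CPM in M9, all above the next class, interferon-like, with 242 and 237 CPM in C6M9 and 325 and 326 CPM in M9. Lck was highest in the same cluster, at 557 ± 41.8 CPM, and lowest in the Xcl1 class, at 319.9 ± 24.0 CPM. Zap70 varied little, between 136 ± 9.80 CPM in the Tnfrsf4 class and 90.0 ± 12.2 CPM in the Gzma class, a 1.51-fold span. Lat varied least, 1.36-fold, with its own order of classes. It was highest in the Xcl1 class, at 382 ± 59.5 CPM, and lowest in the Tnfrsf4 class, at 280.0 ± 22.1 CPM. Of the 8 neighbouring pairs in the order of the 9 classes, 4 to 7 lay within their spread, depending on the gene, so fine ranks should not be read. The classes also differ in RNA content: the median cell held 44780 UMIs in the Gzma class and 11676 in the Kcnc1 cluster, and Fyn reached 7.58 UMIs per cell in the Gzma class against 6.34 in the Kcnc1 cluster. The Gzma class, lowest in Fyn CPM, was thus not lowest in Fyn molecules per cell.

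The groups differed in the mix of these classes. The Kcnc1 cluster, with the highest Fyn level, made up 4.77 ± 0.52% of T cells in C6M9 and 34.2 ± 5.9% in M9 (SD, n = 2 each). Memory-like cells made up 39.4 ± 3.0% in C6M9 and 10.3 ± 5.2% in M9. The Tnfrsf4 class, with the highest CD3 and CD8 levels, made up 1.21% in each C6M9 library and 13.9 ± 3.9% in M9. With every library given the same class mix, Fyn was at 248 and 233 CPM in C6M9, against 280.3 and 296 CPM in M9. The C6M9 libraries remained below the M9 libraries, with a log2 ratio of −0.26 in place of −0.62 for the unscaled CPM of all T cells. Of the other members, Cd3e stood at −0.19, Lat at −0.12, Cd247 at −0.05, Lck at 0.08 and Cd8b1 at 0.13 on this scale, each without overlap, and Cd3d, Cd3g, Cd8a and Zap70 overlapped. With Fyn, that is 6 of 10 members without overlap, against 44% of all genes tested.

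Within classes, 7 had at least 50 cells in every library and were tested. Of the members, 2 were called, both in the Xcl1 TCR-activated-like class, where 5.1% of the genes tested were called. Fyn in this class had 180.3 and 147 CPM in the C6M9 libraries, against 242 and 252 CPM in the M9 libraries. No C6M9 library reached the M9 range, and the difference was −0.59 ± 0.12 (edgeR adjusted p = 0.00160). Cd3e had 577 and 567 CPM in the C6M9 libraries, against 718 and 777 CPM in the M9 libraries. Here too the groups were apart, with a difference of −0.39 ± 0.11 (edgeR adjusted p = 0.0303). The call of Fyn was lost without C6M9 replicate 2 (edgeR adjusted p = 0.173), and that of Cd3e without C6M9 replicate 1 (0.220), C6M9 replicate 2 (0.307) or M9 replicate 2 (0.115). Lat in this class had 337 and 339 CPM in the C6M9 libraries, against 436 and 418 CPM in the M9 libraries, a difference of −0.34 ± 0.11 that missed the threshold (edgeR adjusted p = 0.0756). The Tnfrsf4 class, with 35 and 21 cells in C6M9, and the Gzma class, with 13 cells in M9 replicate 2, were not tested. When the Tnfrsf4 and Xcl1 clusters were merged, which was done after seeing the data, 5 members were called and all were lower in C6M9: Fyn (−0.62), Cd3e (−0.53), Cd3d (−0.38), Cd3g (−0.37) and Cd247 (−0.36). In that merged class 21.1% of all genes were called, most of its C6M9 cells came from the Xcl1 cluster and most of its M9 cells from the Tnfrsf4 cluster, so a change in level and a change in the mix cannot be told apart there. At a finer clustering, with its Tnfrsf4 and Xcl1 clusters again merged, there were 4 calls, Fyn, Cd3e, Cd3g and Cd247, against 20.3% of all genes, and the same limit on the mix applies.

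In the other 6 classes no member was called. The share of all genes called there was 0.163% in the Kcnc1 cluster, 0.237% in the Hist1h2ap cycling-like class, 0.436% in memory-like cells, 0.624% in the Klre1 effector-like class, 0.948% in the interferon-like class and 1.6% in the Ccnb2 cycling-like class. The closest was Fyn in the interferon-like class, with 246 and 242 CPM in C6M9 against 328 and 316 CPM in M9 and a difference of −0.40 ± 0.10 (edgeR adjusted p = 0.0699). Fyn was −0.30 in the Hist1h2ap cycling-like class, −0.23 in the Ccnb2 cycling-like class, −0.19 in the Kcnc1 cluster, −0.08 in memory-like cells and −0.04 in the Klre1 effector-like class. Its sign was thus negative in 7 of 7 classes, as for 7.83% of the 8878 genes tested in all of them, and both C6M9 libraries lay below both M9 libraries in 6 of 7 (all but the Klre1 effector-like class), as 6 or more did for 2.31% of genes. Cd3e was negative in 7 of 7 classes as well, from −0.39 to −0.0046, but below without overlap in only 3 of 7. The classes of a library share its cells and its preparation, so these counts are not independent tests.

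Lck and Cd8b1 went the other way in the classes without a call. Lck was positive in 7 of 7 classes, as for 8.52% of genes, with C6M9 above M9 in 6 of 7, as 6 or more were for 2.58% of genes. The exception was the interferon-like class. Its lowest adjusted p was 0.313, in the Xcl1 class (edgeR), where it had 360 and 335 CPM in the C6M9 libraries against 302 and 290.4 CPM in the M9 libraries. Cd8b1 was positive in 7 of 7 classes and above without overlap in 6, all but memory-like cells. Its widest difference was in the Kcnc1 cluster, with 1134 and 1074 CPM in the C6M9 libraries against 863 and 806 CPM in the M9 libraries, or 0.40 ± 0.11 (edgeR adjusted p = 0.300). Counts of this kind depend on the scaling, for Lck and also for Cd8a, Cd247 and Lat. On unscaled CPM the C6M9 libraries were above without overlap in 4 of 7 classes for Lck and in 6 of 7 for Cd8b1, where 1.23% of genes reached 6 or more, and each gene had a lower C6M9 mean in 1 class. On the same scale Fyn was below without overlap in 7 of 7 classes, where 4.02% of genes reached 6 or more. The plot of differences by class sets the 5 members without overlap in scaled CPM over all T cells side by side.

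**Figure D3:**
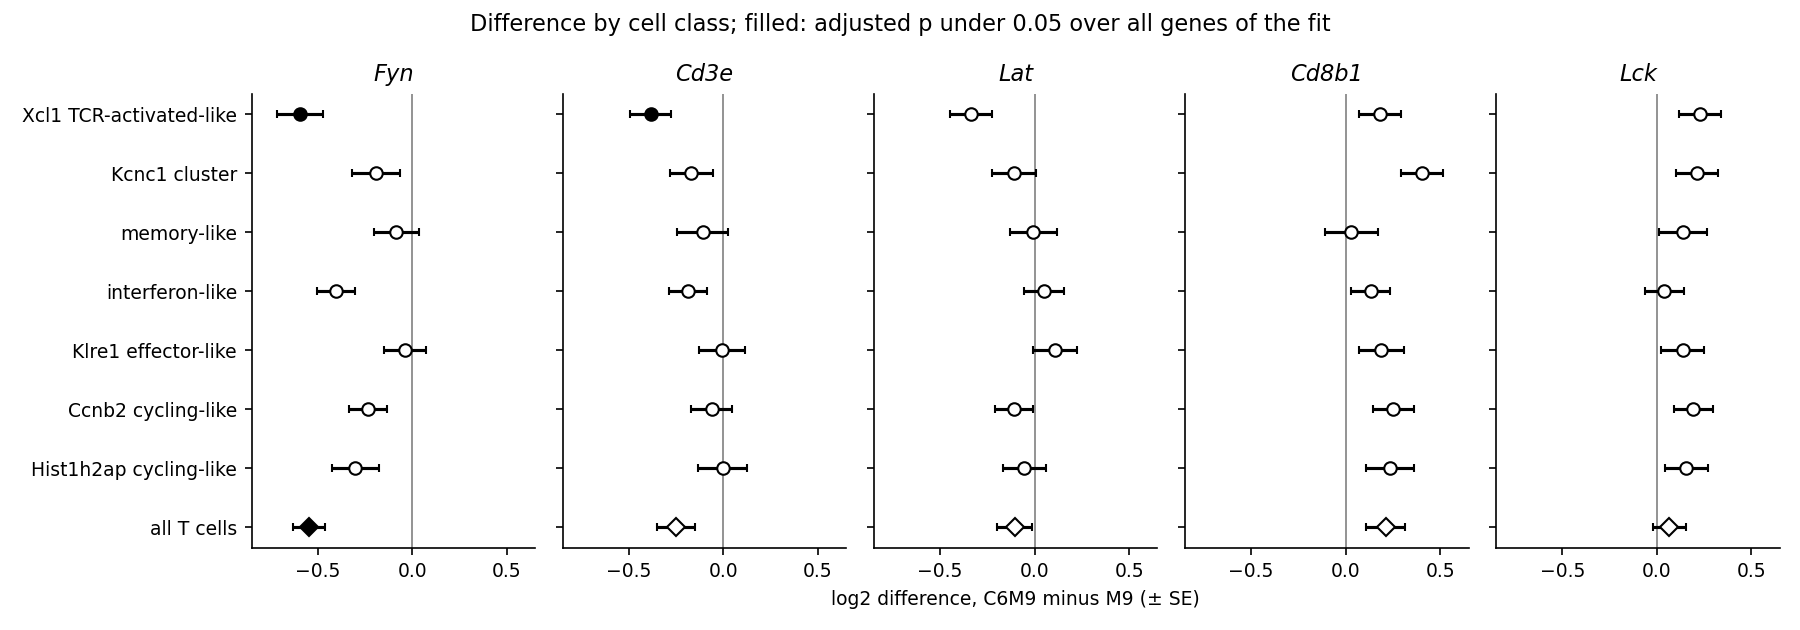
Log2 difference of C6M9 minus M9 (x axis; error bars are SE) for Fyn, Cd3e, Lat, Cd8b1 and Lck in 7 classes and in all T cells (y axis); filled points have an edgeR adjusted p under 0.05. Fyn and Cd3e lie left of zero in every class, Lck and Cd8b1 right of zero (on unscaled CPM each has a lower C6M9 mean in 1 class), and the filled points are Fyn in all T cells and Fyn and Cd3e in the Xcl1 class.

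Whether a member's difference varied between classes was tested with the class by group terms of one edgeR model over the 7 classes. Lat was the 1 member called (F = 4.67, edgeR adjusted p = 0.0431), against 4.04% of 11528 genes. Its difference was −0.34 in the Xcl1 class and 0.11 in the Klre1 effector-like class, where it had 304 and 321 CPM in C6M9 against 306 and 272 CPM in M9. The call was lost without C6M9 replicate 1 (edgeR adjusted p = 0.127), C6M9 replicate 2 (0.514) or M9 replicate 2 (0.547). For Fyn the edgeR test gave an adjusted p of 0.0988, for Cd8b1 0.0707 and for Cd3e 0.0762, so that a difference of their effects between classes was not shown.

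**Figure D4:**
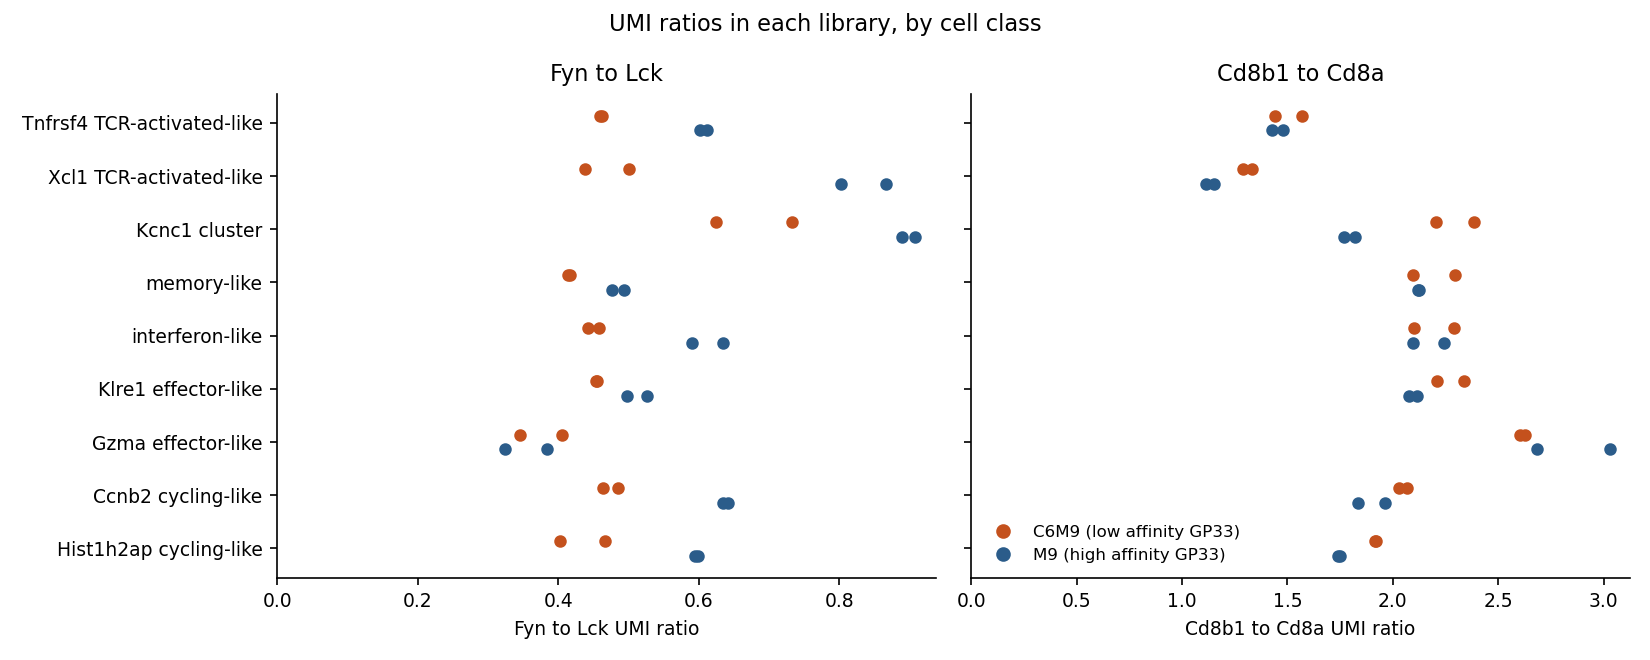
Ratio of Fyn to Lck UMIs and of Cd8b1 to Cd8a UMIs (x axes) in each library for each of 9 classes (y axis, C6M9 above M9). Fyn to Lck is lower in C6M9 without overlap in 8 of 9 classes, and Cd8b1 to Cd8a is higher in C6M9 without overlap in 5 of 9.

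The ratio of Fyn to Lck separated the groups in most states, as the plot of ratios by class shows. Both C6M9 libraries were below both M9 libraries in 8 of 9 classes, and the Gzma class, at 0.346 and 0.405 in C6M9 against 0.385 and 0.324 in M9, was the exception. The 9 classes include the 2 too small to be tested, Tnfrsf4 (35 and 21 cells in C6M9) and Gzma (13 cells in M9 replicate 2). How often other gene pairs give such counts was not computed. The gap was widest in the Xcl1 class, with 0.501 and 0.438 in C6M9 against 0.802 and 0.866 in M9. In memory-like cells it was narrow but without overlap, with 0.414 and 0.417 in C6M9 against 0.494 and 0.476 in M9. The ratio of Cd8b1 to Cd8a was higher in C6M9 in 5 of 9 classes, among them the Kcnc1 cluster, with 2.39 and 2.20 in C6M9 against 1.82 and 1.77 in M9. It overlapped in the Tnfrsf4, interferon-like and memory-like classes and was lower in C6M9 in the Gzma class, at 2.63 and 2.61 in C6M9 against 3.03 and 2.69 in M9.

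Across the 36 library-by-class profiles, the genes whose log2 CPM followed each member best were found among 5459 genes with a mean of at least 20 CPM. Fyn ran closest to the costimulatory receptor gene Cd28 (Pearson r = 0.953) and to Slamf6 (0.951), a receptor of the SLAM family. Lck ran closest to Zdhhc18 (0.957) and Slc9a9 (0.950). Cd3d followed Arhgef3 (0.961) and Pfdn5 (0.960), Cd3e followed Ephx1 (0.951) and Ptprc (0.947), the gene of the phosphatase CD45, and Cd3g followed Tmsb15b2 (0.933) and Gabarap (0.927). Cd247 followed Cd2 (0.928), an adhesion receptor of T cells, and Gabarap (0.911). Cd8a followed Relb (0.926) and Orai1 (0.913), Zap70 followed Relb (0.842) and Nfkbie (0.823), and Cd8b1 followed Fxyd5 (0.886) and Rac2 (0.801). Lat had the loosest partners, Tspan13 (0.695) and Cd22 (0.664). Among the members, Cd3d and Cd3g reached 0.944, Fyn and Cd3e 0.863 and Fyn and Lck 0.72, whereas Cd8a and Cd8b1 reached 0.44 and Lat and Cd8b1 −0.65. These values describe profiles that share libraries and depth, and no p-value was computed for them.

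The genes around the receptor were read from 7 lists of 71 genes, of which 68 were tested, 3 rose and 10 fell over all T cells. That is 19.1% of the genes tested, against 6.57% of all genes, and is given as a description. The lists were chosen with earlier results of these data known, so the excess over 6.57% is no test. All values of these lists are over all T cells, whose class mix differed between the groups. The part of that mix in them was not tested. None of the 3 TCR constant genes was called, with Trbc1 at −0.10 (edgeR adjusted p = 0.619) and Trac at −0.06 (0.762); reads of Trbc1 and its close copy Trbc2 can be confused. Of 9 co-receptors and costimulatory receptors, 0 rose and 3 fell, with a median of −0.24. Cd28, the receptor whose profile lay closest to that of Fyn, had 190 and 187 CPM in the C6M9 libraries, against 270 and 234 CPM in the M9 libraries (−0.42, edgeR adjusted p = 0.0395). Icos, its inducible relative, had 67.6 and 60.8 CPM in the C6M9 libraries against 111 and 93.8 CPM in the M9 libraries (−0.68, edgeR adjusted p = 0.00842). Cd4 was also lower in C6M9 but near its floor, at 1.15 and 1.04 CPM against 3.19 and 2.31 CPM in M9 (−1.34, edgeR adjusted p = 0.0133).

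Of 7 transmembrane adaptors, 2 rose and 2 fell. Pag1, the adaptor that anchors the inhibitory kinase Csk beside Lck and Fyn, rose to 48.6 and 49.4 CPM in the C6M9 libraries, against 28.5 and 29.9 CPM in the M9 libraries (0.75, edgeR adjusted p = 0.00215). Sit1, another inhibitory adaptor, was higher by 0.37 (edgeR adjusted p = 0.0337), while Lax1 (−0.49, 0.0156) and Trat1 (−0.40, 0.0271), which binds the TCR complex, were lower. Of 14 negative regulators of the proximal kinases, 1 rose and 2 fell. Sla2, an adaptor that recruits Cbl to the receptor, had 37.2 and 37.0 CPM in the C6M9 libraries, against 25.9 and 24.9 CPM in the M9 libraries (0.54, edgeR adjusted p = 0.00821). The phosphatase gene Ubash3b (−0.36, 0.0438) and the ubiquitin ligase gene Cblb (−0.38, 0.0429) were lower.

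Of 18 substrates and adaptors downstream of Zap70, 0 rose and 1 fell, Sh3bp2, at 4.13 and 4.24 CPM in the C6M9 libraries against 6.03 and 5.88 CPM in the M9 libraries (−0.51, edgeR adjusted p = 0.0488). Of 13 second messenger genes, 0 rose and 2 fell. Dgkz, the kinase that removes diacylglycerol, had 124 and 128 CPM in the C6M9 libraries, against 179 CPM in each M9 library (−0.51, edgeR adjusted p = 0.00964), and the transcription factor Nfatc1 was lower by the same test (−0.40, 0.0222). Of the 7 other Src and Syk family kinases 4 could be tested and none passed. The 2 with the smallest p were Src, which stayed between 0.06 and 0.28 CPM (−1.75, edgeR adjusted p = 0.104), and Fgr, at 7.41 and 8.18 CPM in C6M9 against 9.49 and 10.3 CPM in M9 (−0.34, 0.105). Of the 7 Src and Syk family kinases tested, these 4 with Lck, Zap70 and Fyn, Fyn alone was called, as the plot of the lists shows.

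**Figure D5:**
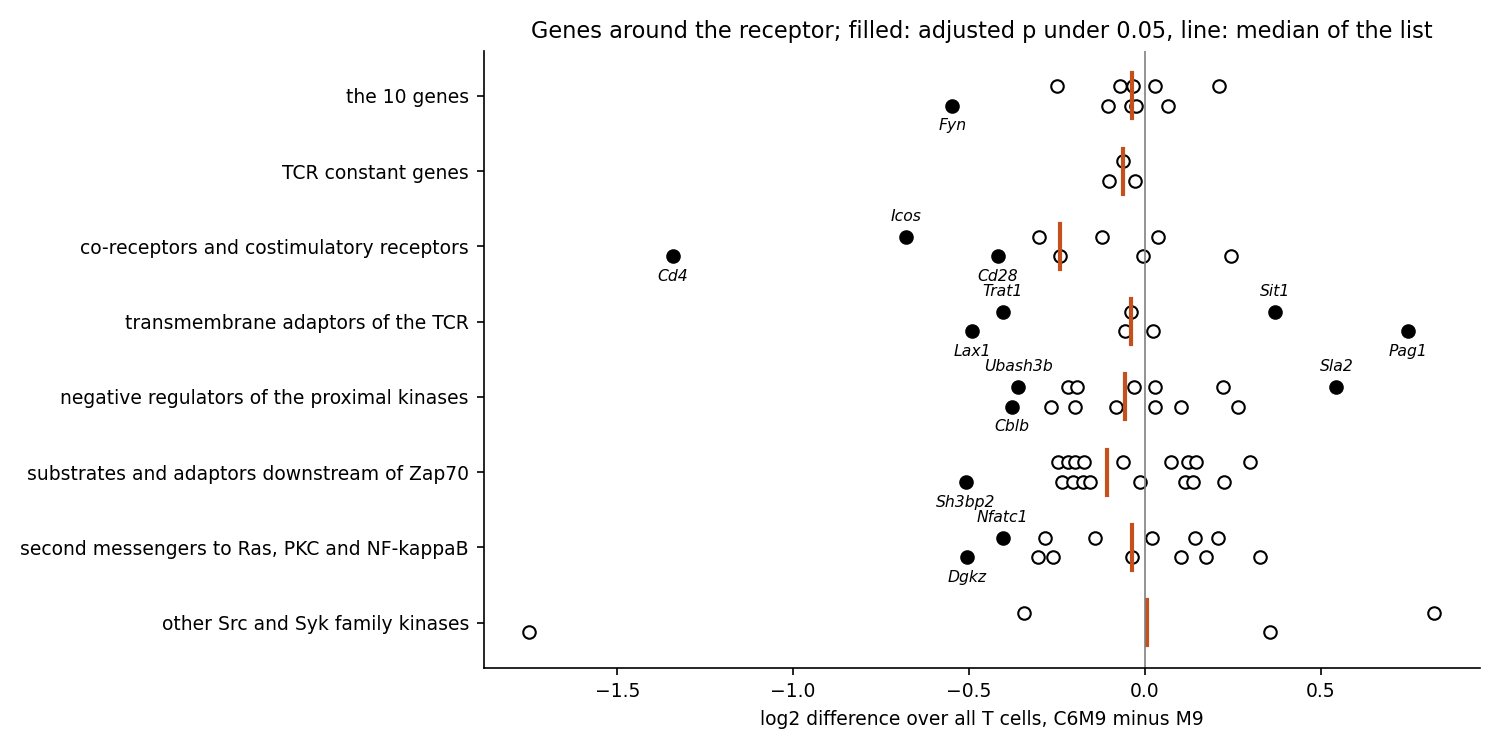
Log2 difference of C6M9 minus M9 over all T cells (x axis) for every tested gene of the 10 members and the 7 lists around them (rows); filled points have an edgeR adjusted p under 0.05. Among the members Fyn is the filled point, and in the lists 3 filled points lie right of zero and 10 left of it.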

How the data were processed

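RNA of sorted CD8 T cells was measured in 4 single-cell libraries, 2 of C6M9 and 2 of M9. The deposited matrices hold UMI counts per gene and cell barcode, made by the authors with Cell Ranger 6.0.0 on mm10, per the submitters' processing notes. Whether intronic reads were counted was not given in the sources used here. Of 11113 barcodes, 10324 passed minimums of 500 genes and 1000 UMIs and a maximum mitochondrial share of 10%. The automatic Scrublet threshold marked at most 0.57% of a library, so the highest Scrublet scores were left out at 0.8% per 1000 barcodes (277 cells). Clustering used scanpy 1.11.5 with 2000 variable genes, without the members and without receptor variable, mitochondrial, ribosomal and sex-linked genes, then 30 principal components, 15 neighbours and the Leiden method at resolution 0.6. A cluster was named when at least 3 genes of a marker list were present in 25% or more of its cells, with 1 or more among its 10 leading genes. For the B cell, CD4, natural killer, γδ and myeloid lists, 3 or more leading genes were required. The mean log2 fold of the list over the other cells also had to be positive. Any 2 libraries shared 0 to 4 barcodes.

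The counts of a library's T cells were added up, once in all and once per class, and tested with edgeR 4.0.16 in R 4.3.3 (filterByExpr, TMM, quasi-likelihood F test on the trended dispersion, two-sided, Benjamini-Hochberg over all genes). The library was the replicate, 2 against 2, and no covariate was used. The interaction model had terms for library and class. Alternatives were DESeq2 1.42.0, limma 3.58.1 on log2 of the mean per-cell UMIs per 10000 with a pseudocount of 0.01, other scalings, filters and clusterings, and leaving out each library. Intervals cover the spread between libraries, and shares of cells cover counting error only.

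The members and the lists were chosen with earlier results of these data known. Text names the 10 members, the called genes of each list (or the 2 with the smallest p where none passed), and for each member the 2 other genes with the closest profile. Coordinates come from GENCODE release 21 on GRCm38, matched by gene identifier for 32158 of 32285 features. Promoters come from RefSeq (GRCm38.p6).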

Additional observations from a re-analysis of the deposited data

Results flagged for a closer look

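Lat was the 1 member whose difference between C6M9 and M9 varied between cell classes (edgeR adjusted p = 0.0431). The test used the class by group terms of the edgeR model and called 4.04% of 11528 genes. A single call therefore does not set the members apart from other genes. The log2 difference of Lat was −0.34 in the Xcl1 TCR-activated-like class and 0.11 in the Klre1 effector-like class. Without C6M9 replicate 1 the same test called Fyn in its place (edgeR adjusted p = 0.0277). The call of Lat was held without M9 replicate 1 (edgeR adjusted p = 0.0415) and lost without any of the other libraries (0.127 to 0.547).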

How the results depend on the processing

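With 2 libraries a group, the calls depend on single libraries. Genes called over all T cells numbered 897, against 1974 with no filter on low counts, 574 in cells of 3000 or more UMIs and no more than 5% of them mitochondrial, 1941 with a crossed pairing (added after seeing the data) and 345 to 1559 when one library was left out. Members called were 1 in each setting, Fyn, except that leaving out one library gave 0 to 1. Fyn stayed lower in C6M9 in all 12 alternatives, from −0.69 to −0.48. When one library was left out, Cd3d ranged from −0.22 to 0.13, Cd3g from −0.19 to 0.16, Cd247 from −0.072 to 0.056, Cd8a from −0.11 to 0.083, Zap70 from −0.058 to 0.16 and Lat from −0.18 to 0.0044, so their signs are not settled. Zap70 was also −0.061 without cycling-like cells and −0.11 by limma. Of all genes tested, 5.1% were called in the Xcl1 class. With the Tnfrsf4 and Xcl1 clusters merged, 20.3% were called at Leiden resolution 1.0 and 21.1% at the main resolution. The higher member counts that follow for merged clusters thus came with more calls over all genes. Within classes 2 members were called, against 4 at Leiden resolution 1.0 with clusters of one name merged, 5 at the main resolution merged likewise and 0 to 3 when one library was left out. The varying difference of Lat gave 0 to 1 calls when one library was left out, which was tried after seeing the data. Without cycling-like cells the difference of the Cd8b1 to Cd8a ratio was 0.425 and that of Fyn to Lck −0.263. Over all genes same-numbered libraries did not deviate together (r = −0.133 over 5462 genes). Still, the ratios of Cd3d, Cd3g and Cd247 to Cd3e and the median depth followed the number in both groups. A replicate block gave 1163 calls over all T cells, 1 of them a member, and 4 calls within classes, adding Lat in the Xcl1 class and Fyn in the interferon-like class (edgeR adjusted p = 0.0106 and 0.0237). With this block 7.38% of all genes were called in the Xcl1 class and 2.56% in the interferon-like class. The cause of these changes was not tested.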
